A study of Mus musculus with 16 samples.

Results

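Lymphocytes and the tissue that houses them were followed in fat through 35 genes, chosen by name and sorted into 10 B cell genes, 2 plasma cell genes, 14 T cell genes, 4 natural killer (NK) cell genes and 5 genes of lymphoid stroma. Of the 30946 genes listed for subcutaneous fat, these 35 were all present and tested. Of the 30325 genes listed for gonadal fat, 34 of the 35 were present and 33 were tested. Glycam1 was not among the genes listed there, all of which had at least 2 reads over the 8 samples. Madcam1 was listed but not tested, because its mean was below 10 normalized counts.

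The study asked what lipocalin-2 (LCN2) made by fat cells does in female mice. Every mouse, controls included, was Lcn2-null (B6.129P2-Lcn2tm1Aade/AkiJ on C57BL/6J). At 8 weeks of age each received, into a vein, an adeno-associated virus (AAV8) that carried either LCN2 or green fluorescent protein (GFP), driven by an adiponectin promoter, which is active in adipocytes, with a microRNA122 target site that leads to breakdown of the transcript in liver. Until they were 16 weeks old the mice were fed D12266B, an HF/HS diet made by Research Diets. Gonadal and subcutaneous fat was then sequenced in 4 samples per vector and depot, 16 in all. Samples are named here by vector and replicate number. The labels leave unstated whether a sample is 1 animal and whether equal numbers in the 2 depots belong together, so the p-values cover only the spread among samples, which may be technical.

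B cells carry the Cd79a and Cd79b signalling chains of the antigen receptor, T cells carry the CD3 chains, and plasma cells secrete antibody joined by the J chain. A lymph node keeps B cells in follicles, drawn there by the chemokine Cxcl13, and T cells in a zone marked by Ccl19 and Ccl21a, and lymphocytes enter it through high endothelial venules, whose lining makes Glycam1. White fat holds scattered lymphocytes, and lymph nodes lie embedded within the inguinal subcutaneous pad of mice. In bulk tissue, more cells of a type and more RNA per cell cannot be told apart.

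Promoters of 3 members are shown because each stands for a class whose genes were high in the same subcutaneous samples: Cd79a for B cells, Cd3e for T cells and Ccl19 for stroma. Each is the 300 bases from 250 before to 50 after the RefSeq start, on GRCm38.p6 and in the gene's own direction. Capitals mark the match to a motif, on either strand: AGGAAGTG, bound by ETS factors, in Cd79a and Cd3e, and GGGNNTTCC, bound by NF-kB, in Ccl19. They lie at chr7:24897247-24897546 (plus strand), chr9:45009562-45009861 (minus strand) and chr4:42756316-42756615 (minus strand).
Cd79a: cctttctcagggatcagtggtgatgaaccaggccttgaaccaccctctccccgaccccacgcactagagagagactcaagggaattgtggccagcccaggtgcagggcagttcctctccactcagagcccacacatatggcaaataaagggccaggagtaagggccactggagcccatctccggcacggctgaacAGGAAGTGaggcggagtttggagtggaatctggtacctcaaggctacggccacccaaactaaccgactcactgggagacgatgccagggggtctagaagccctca
Cd3e: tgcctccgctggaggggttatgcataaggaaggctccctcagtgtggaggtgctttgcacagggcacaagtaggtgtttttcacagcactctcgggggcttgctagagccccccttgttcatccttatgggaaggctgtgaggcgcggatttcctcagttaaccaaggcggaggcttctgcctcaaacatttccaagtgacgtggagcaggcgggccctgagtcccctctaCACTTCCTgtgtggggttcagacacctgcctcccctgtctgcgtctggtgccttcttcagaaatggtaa
Ccl19: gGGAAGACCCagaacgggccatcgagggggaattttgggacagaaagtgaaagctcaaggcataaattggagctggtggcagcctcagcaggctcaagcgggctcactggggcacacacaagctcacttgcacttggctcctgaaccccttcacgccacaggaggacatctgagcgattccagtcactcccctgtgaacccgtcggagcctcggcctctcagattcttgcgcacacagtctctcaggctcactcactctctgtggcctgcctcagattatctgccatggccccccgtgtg
The ETS match began 55 bases before the start of Cd79a and 19 bases before that of Cd3e, and the NF-kB match 249 bases before that of Ccl19. The table used holds 32 RefSeq promoters of 26 members, and 4 of the 32 held the ETS letters (in Cd3d, Cd3e, Cd79a and Lck), against 4.07% of all 32851 promoters of that length. The NF-kB letters were in 3 of the 32 (Ccl19, Cd3g and Madcam1), against 5.82%, and the RUNX letters TGTGGTTT in 2 (Gzma and Il7r), against 1.78%. None of the 32 held the octamer ATGCAAAT, which 1.74% of all promoters held.

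Gonadal samples held 35173260 to 42890102 reads, with a median of 37423116, and 3 reads correspond to 2.49 to 3.40 normalized counts. Depth is unknown for subcutaneous fat, whose values are rlog, a log2 scale that pulls low genes together. The 2 tables were normalized separately, so no level is compared between depots. Adipocyte genes were high in every sample, with Adipoq (adiponectin) at an rlog of at least 15.77 and a normalized count of at least 83890.0. Lcn2 was higher in each LCN2 sample than in any GFP sample, at 186 to 522 against 62.1 to 103 normalized counts in gonadal fat and at an rlog of 8.49 to 9.82 against 7.76 to 8.37 in subcutaneous fat. In subcutaneous fat GFP 1, GFP 2 and LCN2 4 stood apart in the lymphocyte genes. Results that rest on them are given with and without them.

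In subcutaneous fat, GFP 1 and GFP 2 held B cell, T cell and lymphoid stroma transcripts far above the other samples, and LCN2 4 held B cell transcripts and part of the stroma set without the T cell receptor genes. The remaining 5 samples were low and close together in the B and T cell classes and in the stroma genes other than Ccl21a. Over the 10 B cell genes, the median distance from each gene's own median over the 8 samples was 4.48 in GFP 1, 3.38 in GFP 2 and 3.03 in LCN2 4 on the rlog scale, and between -0.28 and 0.13 in the other 5. For the 14 T cell genes it was 3.27 in GFP 1 and 2.99 in GFP 2, and only 0.06 in LCN2 4. The 4 NK members showed no such step as a class, with medians from -0.28 to 0.34 over all 8 samples.

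**Figure D1:**
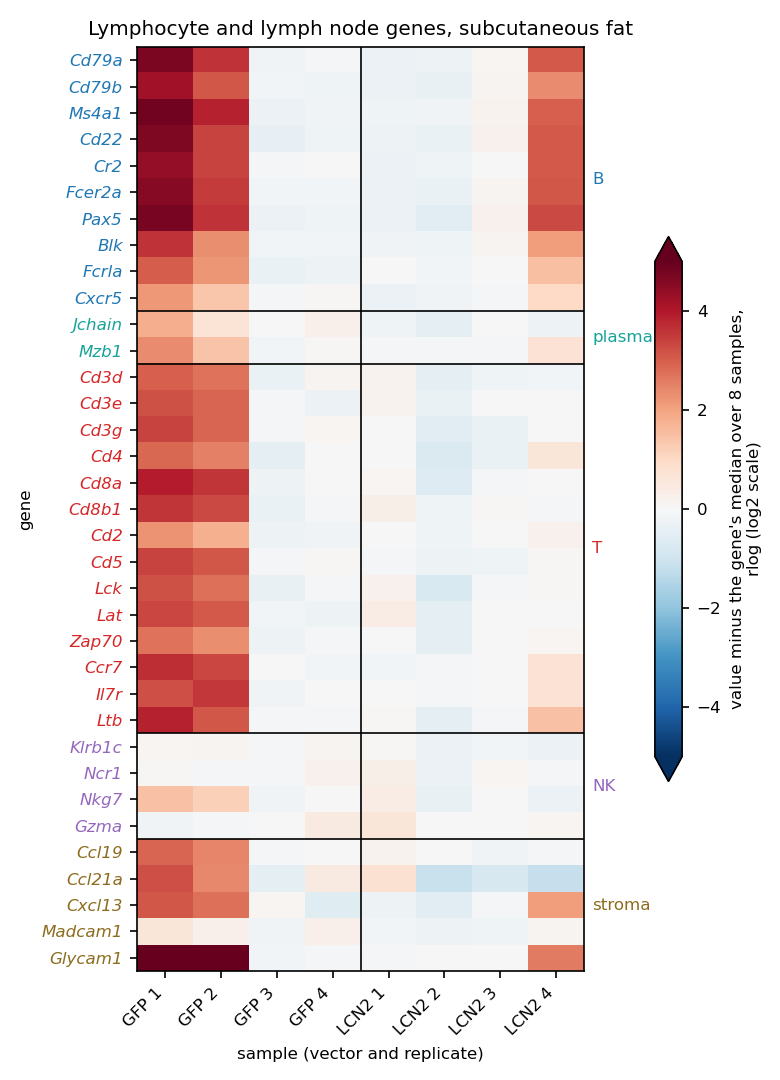
Each row is a gene and each column a subcutaneous sample; colour gives the rlog value minus the gene's median over the 8 samples, with the scale ending at 5 either way (Glycam1 reaches 7.68 in GFP 1). B, T and stroma genes are dark in GFP 1 and GFP 2, and B genes, Cxcl13 and Glycam1 also in LCN2 4.

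Among B cell genes, Cd79a, a signalling chain of the B cell receptor, had rlog values of 10.88, 9.78, 6.00 and 6.07 in GFP 1 to 4 and 5.89, 5.92, 6.28 and 9.23 in LCN2 1 to 4. Ms4a1, which encodes the surface protein CD20, had 10.67, 9.72, 5.57 and 5.69 in GFP 1 to 4 and 5.64, 5.69, 6.03 and 8.87 in LCN2 1 to 4. Cr2, the complement receptor of mature B cells and follicular dendritic cells, had 10.20, 9.18, 5.73 and 5.82 in GFP 1 to 4 and 5.51, 5.57, 5.77 and 8.84 in LCN2 1 to 4. In all 3 genes GFP 1, GFP 2 and LCN2 4 were the highest samples, in that order, and the groups overlapped. That order held for all 10 B cell genes.

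Pax5, the transcription factor that fixes B cell identity, read 10.70, 9.58, 5.67 and 5.76 in GFP 1 to 4 and 5.68, 5.40, 6.18 and 9.26 in LCN2 1 to 4. Its range of 5.29 between lowest and highest sample was exceeded by 3 of the 20302 genes tested, Glycam1, Ighg1 and Ucp1. The restraining receptor Cd22 reached 10.81 in GFP 1 and Fcer2a, the low-affinity IgE receptor of follicular B cells, 10.21, against at most 6.37 and 5.79 in the 5 low samples. Cd79b, the partner of Cd79a, Blk, a kinase of B cell receptor signalling, and Fcrla, an Fc receptor-like gene of B cells, followed the same order, with 10.58, 8.80 and 8.41 in GFP 1. Cxcr5, the receptor for Cxcl13, had the smallest range of the 10, at 2.46, with 9.39, 8.62, 7.11 and 7.27 in GFP 1 to 4 and 6.93, 7.04, 7.17 and 8.22 in LCN2 1 to 4. The 5 low samples lay between 6.93 and 7.27. The rlog scale is not corrected for gene length, so levels are not compared between genes in this depot.

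T cell genes split the samples differently. Cd3e, a chain of the T cell receptor complex, had rlog values of 8.98, 8.71, 5.69 and 5.50 in GFP 1 to 4 and 5.99, 5.46, 5.77 and 5.84 in LCN2 1 to 4. Cd8a, the co-receptor of cytotoxic T cells, had 9.73, 9.37, 5.56 and 5.78 in GFP 1 to 4 and 5.90, 5.15, 5.73 and 5.81 in LCN2 1 to 4. In both genes GFP 1 and GFP 2 lay far above every other sample, and LCN2 4 lay among the low ones. Cd3d, Cd3g, Cd8b1, Cd5, Lck, Lat and Zap70, which encode further receptor chains and proximal signalling proteins, had the same pattern, with values in GFP 1 from 8.29 for Cd3d to 10.22 for Lck.

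LCN2 4 was the third highest sample in 6 of the 14 T cell genes. The co-receptor Cd4, also made by some myeloid cells, was at 7.49 there against at most 6.92 in the 5 low samples. Ltb (lymphotoxin beta), which lymphocytes use to signal to stroma and which B cells also make, had 10.18, 9.44, 6.26 and 6.27 in GFP 1 to 4 and 6.36, 5.84, 6.22 and 7.78 in LCN2 1 to 4. Ccr7, the receptor for Ccl19 and Ccl21a that B cells carry too, had 9.58, 9.21, 5.90 and 5.74 in GFP 1 to 4 and 5.75, 5.79, 5.85 and 6.62 in LCN2 1 to 4. In these 2 genes LCN2 4 was the third highest sample, well below GFP 1 and GFP 2. Il7r, the interleukin-7 receptor, was the only T cell gene with its highest value in GFP 2, at 10.16 against 9.84 in GFP 1. The adhesion receptor Cd2 had the smallest range of the T cell genes, at 2.51.

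The stroma genes did not all follow 1 order of samples. Over the 5 of them the median distance from the gene's own median was 3.10 in GFP 1, 2.45 in GFP 2 and 0.14 in LCN2 4. Glycam1, the mucin-like ligand of high endothelial venules, had rlog values of 13.05, 11.47, 5.23 and 5.27 in GFP 1 to 4 and 5.29, 5.37, 5.38 and 7.96 in LCN2 1 to 4, the widest range of all 20302 genes tested, at 7.83. GFP 1 and GFP 2 were far above the rest, LCN2 4 stood between, and the groups overlapped. On GRCm38 the gene lies at chr15:103562759-103565081, on the minus strand. Glycam1 is also a gene of the milk-producing mammary gland. The milk protein genes Csn2 and Wap were at or below an rlog of -0.05 in every sample, and the mammary basal keratin Krt5 was lowest in GFP 1, at 8.75, against 9.51 to 10.76 elsewhere. Csn2 and Wap were chosen after their values were seen. Chst4, a sulfotransferase of high endothelial venules, was at 5.07 and 4.26 in GFP 1 and GFP 2 and at 3.24 to 3.25 in the other 6 samples, LCN2 4 among them.

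Cxcl13, the B cell follicle chemokine, had 9.28, 8.92, 6.29 and 5.56 in GFP 1 to 4 and 5.94, 5.60, 6.08 and 8.28 in LCN2 1 to 4, so LCN2 4 was again the third highest sample, and the groups overlapped. Ccl19, a T zone chemokine, had 8.23, 7.77, 5.27 and 5.29 in GFP 1 to 4 and 5.49, 5.36, 5.15 and 5.21 in LCN2 1 to 4. In Ccl19 only GFP 1 and GFP 2 were high and LCN2 4 was among the lowest samples. Ccl21a, the other T zone chemokine and also a product of lymphatic vessels, had 11.55, 10.72, 7.86 and 8.77 in GFP 1 to 4 and 9.07, 7.18, 7.50 and 7.15 in LCN2 1 to 4. LCN2 4 was the lowest of the 8 in Ccl21a, and GFP 4 and LCN2 1 came next behind the 2 high samples.

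Ccl21a reads may be split with near-identical genes. Of its 31-base words, 80.6% occur in transcripts of Gm21541, 79.5% in Gm13304 and 36.9% in each of Ccl21b and Gm10591, and all 4 had their highest values in GFP 1 and GFP 2. Ccl19 shares 35.8% of its words with Ccl19-ps3 and 24.6% with Ccl19-ps1. Madcam1, the addressin of mucosal venules, stayed low, with 4.69, 4.34, 3.93 and 4.32 in GFP 1 to 4 and 3.95, 3.83, 3.87 and 4.22 in LCN2 1 to 4. Its highest sample was GFP 1, but the range was only 0.85.

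The 2 plasma cell members were also highest in GFP 1 and GFP 2, by smaller margins. Jchain, which links antibody into polymers, had 7.41, 6.28, 5.63 and 5.86 in GFP 1 to 4 and 5.38, 5.10, 5.57 and 5.35 in LCN2 1 to 4. It was the 1 member whose groups did not overlap in subcutaneous fat, a separation seen in 7.08% of all genes tested. Mzb1, a chaperone of antibody secretion, had 6.67, 5.75, 4.18 and 4.39 in GFP 1 to 4 and 4.27, 4.27, 4.27 and 5.05 in LCN2 1 to 4. Its exons overlap those of SPATA24 on the same strand over 57.2% of their length, so its reads may be shared. Smaller exon overlaps touch Klrb1c (14.0%, Gm44511, same strand) and Cd22 (9.50%, Gm29439, opposite strand). The constant-region gene Ighg1 stood at 10.65 in GFP 1 and at most 4.33 elsewhere, the second widest range of all. The 11 further plasma cell genes were mixed, with medians of 0.28 and 0.12 above the gene medians in GFP 1 and GFP 2. Igkc, Ighg2b and Pou2af1 were highest in GFP 1, while Xbp1, Sdc1 and Txndc5, which other secretory or epithelial cells also make, were lowest there (these 3 were chosen after their values were seen).

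Among the NK members, 3 of 4 did not share this pattern. Klrb1c (NK1.1) had 5.54, 5.56, 5.39 and 5.59 in GFP 1 to 4 and 5.48, 5.15, 5.30 and 5.16 in LCN2 1 to 4, and Ncr1, the activating receptor NKp46, had 5.51, 5.37, 5.35 and 5.65 in GFP 1 to 4 and 5.75, 5.17, 5.53 and 5.38 in LCN2 1 to 4. In Klrb1c the groups overlapped only because LCN2 1 lay above GFP 3, within a range of 0.44 over all samples. In Ncr1 samples of both groups were mixed, and in neither gene did a sample stand apart. Gzma, a granule protease of NK and cytotoxic T cells, was highest in LCN2 1, at 6.98, and lowest in GFP 1, at 6.20. Nkg7, a granule gene shared with cytotoxic T cells, was the other member, with 7.59 and 7.33 in GFP 1 and GFP 2 and at most 6.50 in the others. Further NK and cytotoxic genes were also higher in those 2 samples, with a median over the 11 genes tested of 0.77 and 0.56 above the gene medians in GFP 1 and GFP 2, against -0.23 to 0.20 elsewhere. Klrd1, a receptor chain of NK and cytotoxic T cells, was at 7.44 and 7.13 there and at most at 5.93 elsewhere, and Eomes, a transcription factor of both, at 6.10 and 5.87 against at most 5.04.

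Genes outside the 35 members had wide ranges in the same samples. Of the 100 genes with the widest range in subcutaneous fat, 24 were members, and 86 of the 100 were highest in GFP 1. Members are 0.172% of the genes tested. They were chosen with earlier results of these data known, so the count describes the list and is no test of it. The median range was 3.72 for the 35 members and 0.38 for all genes tested. Of the 10 pan-leukocyte genes, which include Ptprc (CD45), the median lay 1.89 and 1.30 above the gene medians in GFP 1 and GFP 2 and 0.31 above in LCN2 4. The median over the 12 macrophage genes stayed within -0.24 to 0.29 in all 8 samples.

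**Figure D2:**
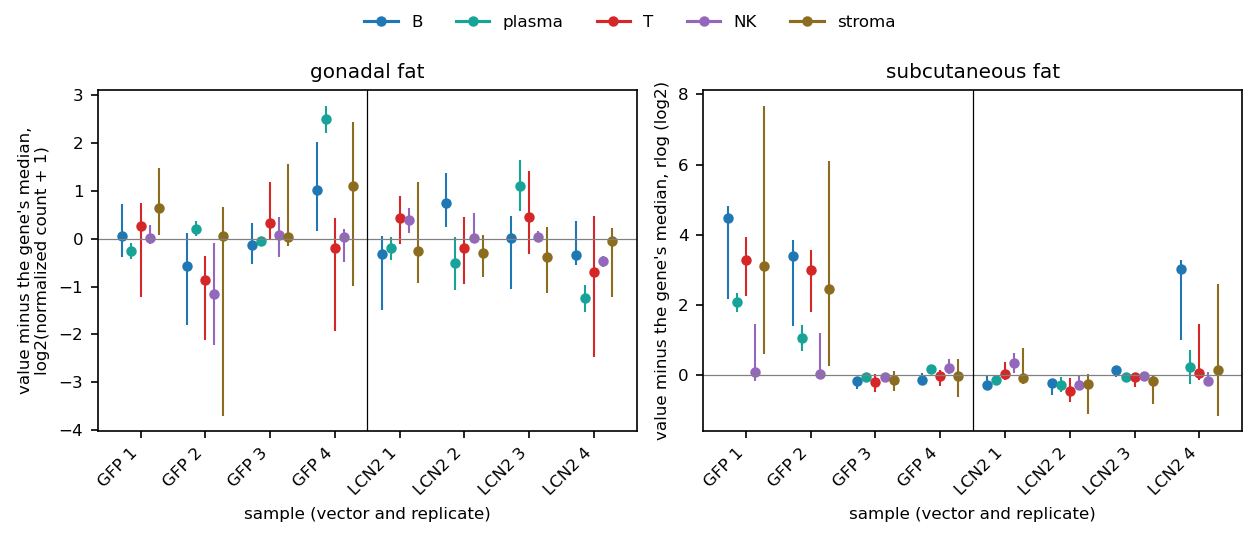
Points give the median over the genes of a class of the value minus the gene's own median, and lines run from the lowest to the highest gene, for each sample (left, log2 of the normalized count plus 1 in gonadal fat; right, rlog in subcutaneous fat). In subcutaneous fat B, T and stroma are high together in GFP 1 and GFP 2. In gonadal fat the B median leads in GFP 4 and LCN2 2 and the T median, at -0.20 in both, does not follow, though single T genes do.

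The comparison of LCN2 with GFP in subcutaneous fat called no gene. At an adjusted p under 0.05 by limma, 0 of 20302 genes passed (0%), and so 0 of the 35 members. At an unadjusted p under 0.05, limma gave 2851 genes and 4 members, all lower with LCN2 (Ccl21a, Cd3g, Jchain and Klrb1c), beside 6.24% of all genes lower at that threshold. The fitted difference was below 0 for 34 of 35 members, with a median of -1.31, while 49.8% of all genes lay above 0. The largest was that of Glycam1, at -2.75 ± 1.83 (SE), adjusted p = 0.498 by limma. Cd8a differed by -1.96 ± 0.97, adjusted p = 0.396 by limma, and Cd79a by -1.35 ± 1.27, adjusted p = 0.624 by limma.

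Most of these differences below 0 rest on GFP 1 and GFP 2. With LCN2 4 alone left out, the median was further below 0, at -1.59. GFP 1 and GFP 2 were picked for their high values in these same genes, so leaving them out had to raise most differences. Without GFP 1 and GFP 2, 25 of 35 members lay above 0 with a median of 0.18. Without LCN2 4 as well, 15 of 35 did, with a median of -0.01, and still no member passed. The Cd79a difference went from -1.35 with all samples to 0.79 without the 2 GFP samples and to -0.01 without all 3. The Klrb1c difference stayed below 0, at -0.25 with all samples, -0.21 without the 2 GFP samples and -0.18 without all 3. The Jchain difference lay below 0 in each of these fits, at -0.95 ± 0.35 with all samples (adjusted p = 0.325 by limma), at -0.40 without the 2 GFP samples (adjusted p = 0.905 by limma) and at -0.40 without all 3, where its adjusted p was 0.96 by limma. Over its 17 alternatives that adjusted p ran from 0.0618 to 0.96.

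**Figure D3:**
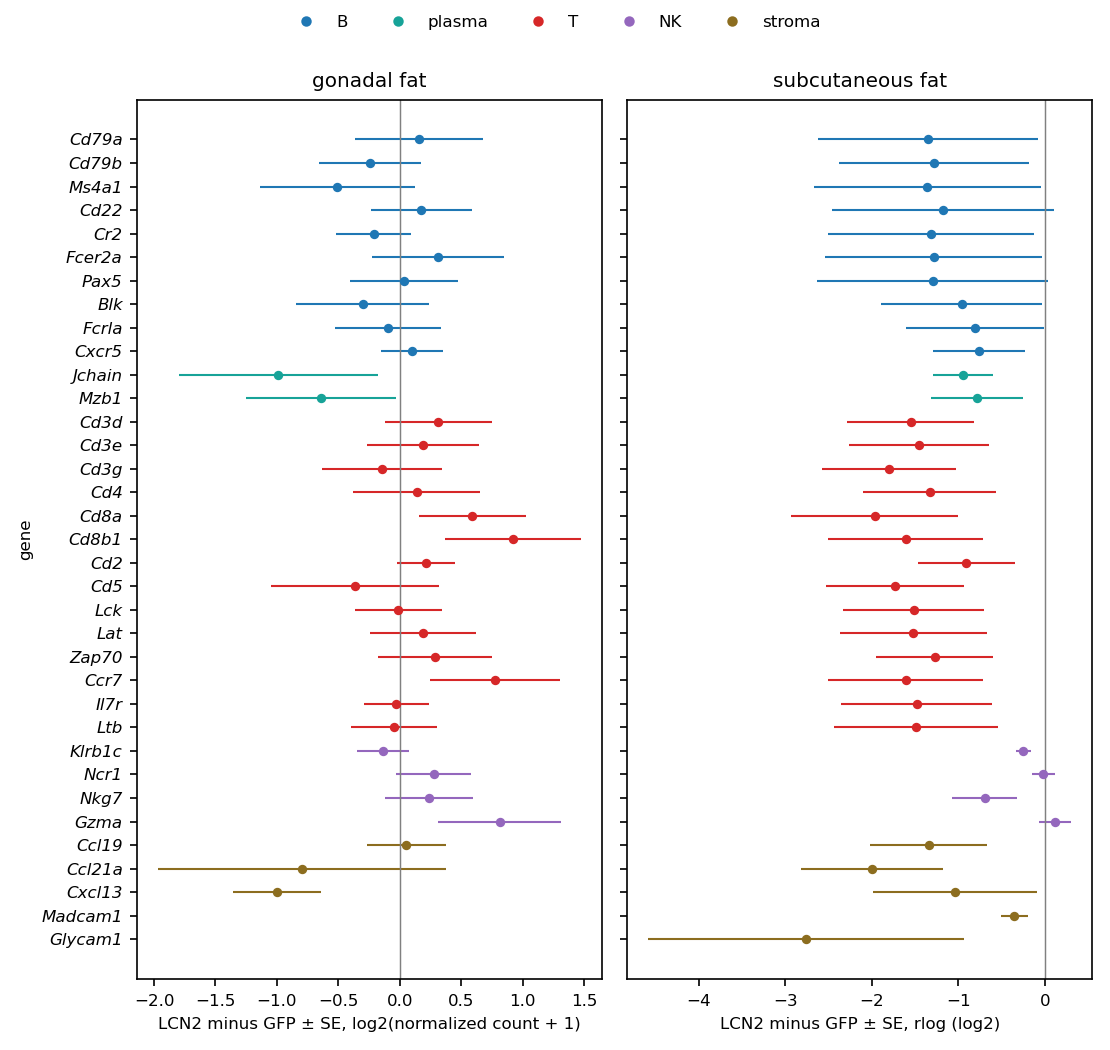
Each point is the fitted LCN2 minus GFP difference of a gene with its standard error, on log2(normalized count + 1) for gonadal fat (left) and rlog for subcutaneous fat (right), from 4 samples per group. Gonadal differences lie on both sides of 0, subcutaneous ones are nearly all below it, and no member passed the test in either depot.

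In gonadal fat most of these genes had low counts, and no sample was high in all classes. B cell genes were highest in GFP 4 and next in LCN2 2, plasma cell genes in GFP 4 and LCN2 3, and T cell genes in LCN2 3, LCN2 1, GFP 3 and GFP 1. Ccl19 and Madcam1 stayed at or below 22.7 and 15.1 normalized counts. None of the 33 members tested was among the 100 genes with the widest range, and their median range was 1.89 on log2(normalized count + 1), against 0.75 for all genes.

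**Figure D4:**
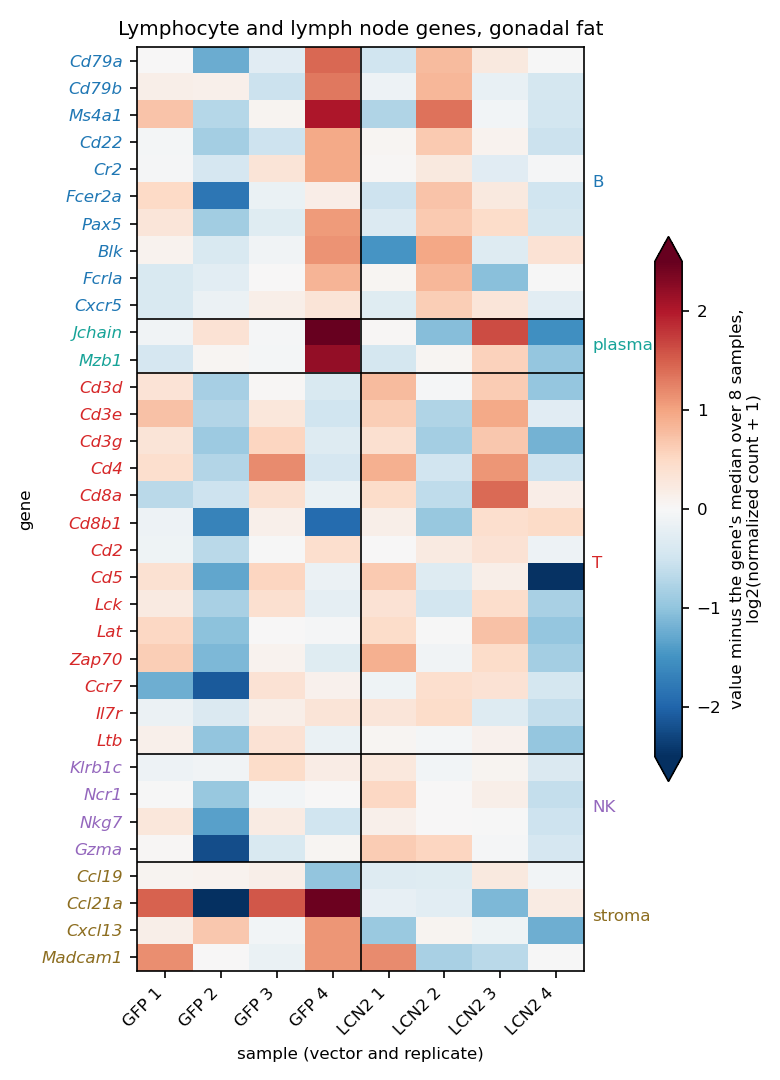
Rows are genes and columns are gonadal samples; colour gives log2(normalized count + 1) minus the gene's median over the 8 samples, with the scale ending at 2.5 either way (Ccl21a reaches -3.69 in GFP 2). B genes are high in GFP 4 and LCN2 2, most T genes are low in GFP 2 and LCN2 4, and no sample is high throughout.

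Cd79a had normalized counts of 49.6, 20.3, 40.3 and 135 in GFP 1 to 4 and 34.7, 85.7, 59.0 and 49.1 in LCN2 1 to 4. Ms4a1 had 53.8, 19.3, 33.9 and 133 in GFP 1 to 4 and 18.7, 84.7, 30.6 and 23.1 in LCN2 1 to 4. Cr2 had 23.2, 17.3, 29.7 and 46.4 in GFP 1 to 4 and 24.0, 28.2, 19.3 and 23.1 in LCN2 1 to 4. GFP 4 was the highest sample in all 3 and LCN2 2 was second in Cd79a and Ms4a1, while the groups overlapped. Over the 10 B cell genes GFP 4 was highest in 8 and LCN2 2 in the other 2, Fcer2a and Cxcr5, and GFP 2 was lowest in 5.

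Pax5 ran from 18.3 in GFP 2 to 72.9 in GFP 4, and Cd22 from 22.4 to 81.2 in the same samples. Cd79b reached 118 in GFP 4, Blk 48.1 and Fcrla 40.6. Per kilobase of exon, the B cell genes spanned from 3.25 normalized counts for Cr2 to 40.6 for Cd79a, as means over the 8 samples. Cr2, Fcer2a and Pax5 had the lowest levels per kilobase of all 34 members.

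Plasma cell genes peaked in GFP 4, where their median lay 2.49 above the gene medians on log2(normalized count + 1), the highest class median of any gonadal sample. Jchain had normalized counts of 119, 163, 123 and 870.2 in GFP 1 to 4 and 129.8, 59.5, 393 and 43.1 in LCN2 1 to 4. GFP 4 stood far above the other samples, LCN2 3 was second, and the groups overlapped. Mzb1, at 6.33, 9.16, 8.48 and 43.9 in GFP 1 to 4 and 6.22, 9.08, 13.6 and 4.01 in LCN2 1 to 4, had the same 2 samples on top. Igkc, the kappa light chain constant region, had 444, 689.8, 416 and 2988 in GFP 1 to 4 and 501, 341, 1286 and 171 in LCN2 1 to 4 and kept that order. In Ighm, the constant region of IgM, the 2 highest samples were GFP 3 and LCN2 3, at 20123 and 17088 (a gene chosen after its values were seen).

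As a class, T cell genes had a different order of samples. Cd3e had normalized counts of 64.4, 22.4, 46.7 and 26.5 in GFP 1 to 4 and 58.7, 22.2, 74.8 and 31.1 in LCN2 1 to 4. Cd4 had 64.4, 28.5, 110.3 and 35.6 in GFP 1 to 4 and 89.8, 34.3, 104 and 33.1 in LCN2 1 to 4. Cd8a had 13.7, 15.3, 29.7 and 19.9 in GFP 1 to 4 and 31.1, 14.1, 61.2 and 25.1 in LCN2 1 to 4. LCN2 3 was highest in Cd3e and Cd8a and GFP 3 in Cd4, the groups overlapped, and GFP 4, which led the B cell genes, was below LCN2 3 in all 3. Over the 14 T cell genes LCN2 3 was highest in 5 and GFP 2 lowest in 7, with LCN2 4 lowest in 4. LCN2 4 also held skeletal muscle transcripts, with a summed count of 50448.5 over 7 muscle genes against 2457 to 7948 elsewhere, and GFP 2 had the lowest sum of 10 pan-leukocyte genes, 10367 against 11258 to 17530. The part of either in the low T cell values was not tested.

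Ccr7 was low in GFP 1 and GFP 2, at 15.8 and 8.14, against 28.1 to 51.4 in the other 6. Lck, the kinase that starts T cell receptor signalling, ran from 48.8 to 118, and Il7r from 66.2 to 137. Some T cell genes peaked in the samples that led the B cell genes. Il7r was highest in LCN2 2 and next in GFP 4, at 137 and 126, Cd2 was highest in GFP 4, at 113, and Ccr7 in LCN2 2. Cd5, which restrains T cell signalling, was at 4.01 in LCN2 4, close to the 3-read level. The remaining T cell genes, Cd3d, Cd3g, Cd8b1, Cd2, Lat, Zap70 and Ltb, had overlapping groups as well. Of these Cd8b1 ran from 4.14 to 26.1, Zap70 from 12.2 to 52.4 and Ltb from 29.5 to 77.4.

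GFP 2 was the lowest sample in 3 of the 4 NK genes. Ncr1 had normalized counts of 45.4, 23.4, 43.5 and 46.4 in GFP 1 to 4 and 65.8, 46.4, 51.0 and 30.1 in LCN2 1 to 4, and Gzma 109.7, 22.4, 82.7 and 112 in GFP 1 to 4 and 169, 156, 107 and 80.2 in LCN2 1 to 4. The groups overlapped in both. Nkg7 was also lowest in GFP 2, at 26.5 against 48.1 to 84.4. Klrb1c ran from 30.1 to 54.1 and was lowest in LCN2 4. Per kilobase of exon Gzma, at 104, was the second most abundant of the 34 members after Ccl21a, and Nkg7 stood at 68.8.

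Ccl21a was the most abundant member per kilobase, at 713, and had the widest range of the 33 tested, at 6.14 on log2(normalized count + 1). Its normalized counts were 943, 25.4, 1006 and 1859 in GFP 1 to 4 and 294, 282, 155 and 395 in LCN2 1 to 4. GFP 2 lay far below all other samples, GFP 1, GFP 3 and GFP 4 were the highest, and the groups overlapped only through GFP 2. The lymphatic endothelial gene Mmrn1 had 539, 17.3, 522 and 602 in GFP 1 to 4 and 151, 118, 77.1 and 156 in LCN2 1 to 4. Reln, also made by lymphatic endothelium, had 425, 58.0, 351 and 451 in GFP 1 to 4 and 162, 121, 97.5 and 197 in LCN2 1 to 4. Both were chosen after their values were seen, and their order of samples was close to that of Ccl21a. Over the 9 blood and lymphatic endothelial genes they come from, 5 lay higher with LCN2 and 4 lower, with a median difference of 0.07. By sample, the median of these 9 genes was -1.14 in GFP 2 and between -0.11 and 0.25 elsewhere, relative to the gene medians. Prox1, the transcription factor of lymphatic identity, was also lowest in GFP 2, at 17.3, and GFP 2 was lowest in the blood vessel gene Cdh5, at 5101 against 7819.5 to 13455. The near copies Gm21541, Gm13304, Ccl21b and Gm10591 were lowest in GFP 2 and highest in GFP 4 too. The part of vessel content in the Ccl21a values was not tested.

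**Figure D5:**
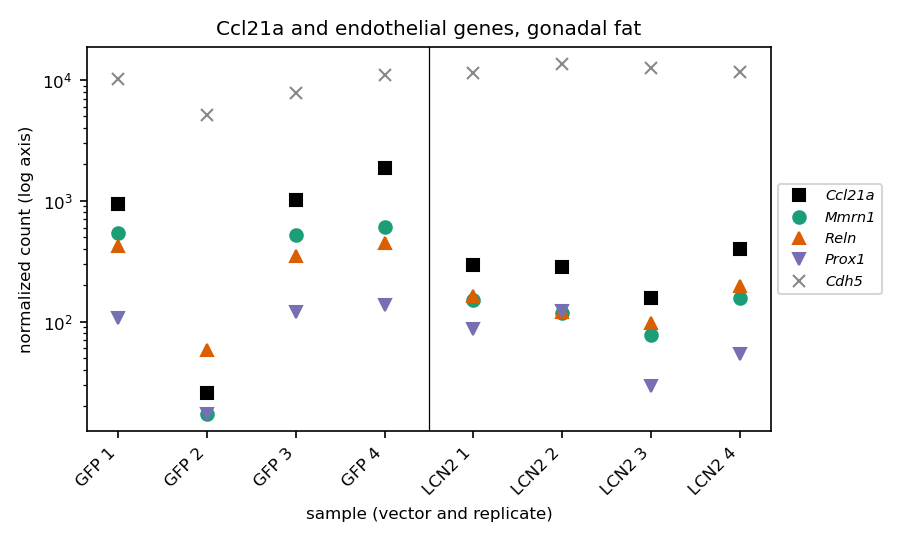
Normalized counts on a log axis for Ccl21a, 3 lymphatic endothelial genes (Mmrn1, Reln, Prox1) and the pan-endothelial gene Cdh5 in each gonadal sample. Ccl21a, Mmrn1 and Reln share a high level in GFP 1, GFP 3 and GFP 4, a lower one in the LCN2 samples and the lowest in GFP 2. Mmrn1 and Reln were chosen after their values were seen. Of the 9 blood and lymphatic endothelial genes they come from, 5 lay higher with LCN2 and 4 lower.

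Cxcl13 had the smallest unadjusted p of the members in gonadal fat. Its normalized counts were 73.9, 107, 63.6 and 144 in GFP 1 to 4 and 34.7, 70.6, 62.4 and 28.1 in LCN2 1 to 4. GFP 4 and GFP 2 were the highest samples and LCN2 4 and LCN2 1 the lowest, with LCN2 2 and LCN2 3 within the GFP range or just below it. The difference was -1.002 ± 0.36 (SE) on log2(normalized count + 1), adjusted p = 0.247 by limma, and over 20 alternatives it ran from 0.117 to 0.477. Mesothelial genes, which mark the lining of the gonadal pad, lay lower with LCN2 in 12 of 12, with a median of -1.23. None of these genes was called by limma, and 5 of the 12 had groups apart, beside 9.11% of all genes tested. Their summed counts were 9673 to 18564 in the GFP samples and 5025 to 10260.5 in the LCN2 samples, and their part in the Cxcl13 difference was not tested.

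Ccl19 had normalized counts of 20.05, 20.3, 21.2 and 9.12 in GFP 1 to 4 and 15.1, 15.1, 22.7 and 18.1 in LCN2 1 to 4, with GFP 4 the lowest sample, where B and plasma cell genes were highest. Madcam1 had 14.8, 6.10, 5.30 and 14.1 in GFP 1 to 4 and 15.1, 3.03, 3.40 and 6.02 in LCN2 1 to 4, and 2 of its values lay at about 3 reads.

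Across all gonadal genes limma called 20 of 19536 (0.102%) at an adjusted p under 0.05, and 0 of the 33 members. At an unadjusted p under 0.05 limma gave 1 member, Cxcl13, beside 14.8% of all genes. Groups did not overlap in 9.11% of all genes and in 0 of the 33 members. The fitted difference lay above 0 for 18 of 33 members, with a median of 0.05, beside 52.0% of all genes, with a median of 0.01. DESeq2 on the recovered reads, with no filter on the mean, called 776 of 30325 genes (2.56%) and 0 members, and edgeR 7 of 19536 genes (0.0358%) and 0 members.

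By class, the difference was above 0 for 5 of 10 B cell genes, 9 of 14 T cell genes, 3 of 4 NK genes, 0 of 2 plasma cell genes and 1 of the 3 stroma genes tested. The largest was that of Cxcl13, followed by Jchain at -0.99 ± 0.81, adjusted p = 0.628 by limma, and by Cd8b1 at 0.92 ± 0.55, adjusted p = 0.489 by limma. Ccl21a differed by -0.79 ± 1.17, adjusted p = 0.807 by limma. Without GFP 2 the Ccl21a difference was -2.17, adjusted p = 0.145 by limma, the lowest of its 20 alternatives (up to 0.963), and 9 of 33 members lay above 0.

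The 15 other lists hold further B, T, NK, plasma and germinal centre genes, stroma and homing genes, and markers of other cell types. By limma 0 of their 158 genes tested in gonadal fat and 0 of 169 in subcutaneous fat were called, with 27 and 11 at an unadjusted p under 0.05. In gonadal fat edgeR also called 0, and DESeq2, without the filter, called 14 of 176, beside 2.56% of all genes, among them the mesothelial genes Bnc1, Gpm6a, Krt19, Lrrn4, Muc16, Upk1b, Upk3b and Wt1, the immune genes Cd72, S100a8 and Siglech, Enpp2, which acts in lymphocyte homing, and Lep. In subcutaneous fat 22 of 23 further T cell genes and 15 of 19 further B cell genes lay below 0, with medians of -1.16 and -0.59. Without GFP 1 and GFP 2 these were 10 of 23 and 1 of 19, with medians of 0.0038 and 0.52, and without LCN2 4 as well 16 of 23 and 4 of 19, with medians of -0.04 and 0.18. Of the 11 further NK and cytotoxic genes tested, 10 lay below 0 with all samples (median -0.39), and 7 without all 3 (median -0.01). In gonadal fat 10 of 22 further T cell genes and 5 of 19 further B cell genes lay below 0, with medians of 0.13 and 0.16. Germinal centre genes, which mark B cells dividing in follicles, lay below 0 in 3 of 6 tested in subcutaneous fat, with a median of 0.04, and their medians by sample stayed within -0.06 to 0.20.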

How the data were processed

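RNA sequencing had measured gonadal and subcutaneous fat of female mice, 4 samples per vector and depot. The KAPA Stranded mRNA-Seq kit was used on RNA with an eRIN above 8.2, per the labels' protocols. HISAT2, DESeq2 and the builds GRCm38 and mm10 are named in the submitters' processing notes, with no versions and no counting strand. The gonadal table deposited by the authors holds a signal per gene, counts divided by 1 size factor per sample. All values came out as whole reads (100.0% within 1e-06) once that factor was removed. The subcutaneous table deposited by the authors holds rlog values, a log2 scale from which depth cannot be read.

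Members were matched by symbol to Ensembl identifiers through GENCODE M21. Members and lists were chosen with earlier results of these data known. In R 4.3.3, limma 3.58.1 with an intensity trend was fitted to log2(normalized count + 1) for 19536 gonadal genes with a mean of at least 10, and to rlog for 20302 subcutaneous genes with a mean of at least 3. P-values were adjusted by Benjamini-Hochberg over all genes tested (threshold 0.05). The alternatives were edgeR 4.0.16 and DESeq2 1.42.0 on recovered reads, other scalings, filters, pseudocounts and weights, a replicate block, and samples left out. The scripts were tested on simulated data. No 2 gonadal samples of a group held the same reads within sampling noise; in subcutaneous fat, without counts, no 2 of a group held identical values. All 35 members are named, and of each other list at most 3 genes by smallest p, those called, and the 15 non-members with the widest range per depot; Adipoq and Ptprc are named as defining markers, and others are said to be chosen after their values were seen. Sequences come from RefSeq promoters on GRCm38.p6. The ± values are standard errors of the limma fit, which come from the spread among samples. The 3-read levels cover counting error only.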

Additional observations from a re-analysis of the deposited data

Results flagged for a closer look

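A sample was set apart from the other 3 of its group in 17 of 136 groups of 4 samples, by the gap to its nearest neighbour over the group's range (above Dixon's 95% critical value for 4 samples). Chance alone flags about 1 in 20 groups, and genes of a class share their samples, so these are not independent.

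In subcutaneous fat LCN2 4 was set apart in 11 genes. Its rlog values were 9.23 for Cd79a, 8.87 for Ms4a1, 9.22 for Cd22, 8.84 for Cr2, 8.77 for Fcer2a, 7.26 for Blk and 6.91 for Fcrla, all B cell genes. They were 5.05 for Mzb1, 6.62 for Ccr7, 7.37 for Il7r and 7.96 for Glycam1. The other 3 LCN2 samples stayed at or below 6.64 in all 11. Gzma was set apart in LCN2 1, at 6.98.

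In gonadal fat GFP 4 was set apart with a normalized count of 870.2 for Jchain, against 119 to 163 in the other GFP samples, and 9.12 for Ccl19, against 20.05 to 21.2. GFP 2 was set apart with 25.4 for Ccl21a, against 943 to 1859, and 23.4 for Ncr1, against 43.5 to 46.4. LCN2 4 had 30.1 for Ltb, against 57.5 to 64.6.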

How the results depend on the processing

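No member passed the test in either depot under any alternative run, the replicate block included. The count of gonadal genes called, 20, depended on the fit: it was 776 by DESeq2, 7 by edgeR, 6 with library totals, 11 with a mean of at least 50, 6 with no intensity trend, 71 with sample quality weights, 0 with the replicate block and 1 to 66 with 1 sample left out (1 without GFP 2 and 66 without GFP 4). The cause was not tested. The deviations of GFP and LCN2 samples of the same number had correlations of 0.25, -0.36, 0.42 and 0.02 in gonadal fat. In subcutaneous fat they were -0.11, -0.33, 0.34 and -0.36. With 4 samples per group these values cannot settle whether equal numbers mark a pair. With the replicate block 0 genes were called in subcutaneous fat too, and 18 of 33 gonadal members lay above 0, as without it.

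Gonadal members above 0 were 6 of the 13 that pass a mean of 50, where fewer genes are tested, and 9 to 23 of 33 with 1 sample left out. Subcutaneous members above 0 were 2 after median centring, 0 to 2 with 1 sample left out, 25 without GFP 1 and GFP 2, and 15 without those and LCN2 4, a setting chosen after seeing the data. Differences of uncalled members that changed sign follow. In gonadal fat they were Cd79a -0.11, Pax5 -0.076, Lck 0.011 and Il7r 0.010 by DESeq2, Cd79a -0.14, Pax5 -0.093, Lck 0.0086 and Il7r 0.0024 by edgeR, and Cd79b 0.068, Fcrla 0.19, Cd3e -0.14, Cd4 -0.22, Il7r 0.052 and Ccl19 -0.15 with quality weights. With 1 sample left out, gonadal differences ran over Cd79a -0.25 to 0.64, Cd79b -0.51 to 0.11, Cd22 -0.071 to 0.53, Cr2 -0.42 to 0.034, Fcer2a -0.18 to 0.59, Pax5 -0.27 to 0.38, Blk -0.66 to 0.15, Fcrla -0.39 to 0.24, Cxcr5 -0.079 to 0.23, Cd3e -0.088 to 0.48, Cd3g -0.45 to 0.17, Cd4 -0.15 to 0.49, Cd5 -0.75 to 0.29, Lck -0.25 to 0.22, Lat -0.11 to 0.53, Zap70 -0.031 to 0.60, Il7r -0.19 to 0.15, Ltb -0.32 to 0.20, Nkg7 -0.098 to 0.45 and Ccl19 -0.22 to 0.16. In subcutaneous fat Ncr1 was 0.011 after median centring, and 1 sample left out gave Ncr1 -0.11 to 0.083 and Gzma -0.032 to 0.25. Without GFP 1 and GFP 2 the differences were Cd79a 0.79, Cd79b 0.63, Ms4a1 0.93, Cd22 0.99, Cr2 0.64, Fcer2a 0.80, Pax5 0.92, Blk 0.60, Fcrla 0.65, Cxcr5 0.15, Mzb1 0.18, Cd3e 0.17, Cd4 0.15, Cd8b1 0.21, Cd2 0.21, Lck 0.081, Lat 0.18, Zap70 0.082, Ccr7 0.18, Il7r 0.25, Ltb 0.28, Nkg7 0.010, Gzma -0.065, Ccl19 0.021, Cxcl13 0.55 and Glycam1 0.75. Without LCN2 4 as well they were Ms4a1 0.16, Cd22 0.19, Pax5 0.041, Blk 0.057, Fcrla 0.25, Cd3e 0.15, Cd8b1 0.23, Cd2 0.14, Lck 0.011, Lat 0.18, Zap70 0.023, Il7r 0.055, Nkg7 0.081, Gzma -0.037, Ccl19 0.050 and Glycam1 0.098. At gonadal counts near 3 reads, as in some samples of Madcam1, Mzb1 and Cd5, a difference was not detectable at this depth.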

Other observations

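Subcutaneous GFP 1 and GFP 2 were also high in genes of dendritic cells and regulatory T cells. Siglech, of plasmacytoid dendritic cells, had rlog values of 8.22, 8.33, 6.80 and 6.76 in GFP 1 to 4 and 6.68, 6.42, 6.56 and 7.09 in LCN2 1 to 4. Ccl22, a chemokine of mature dendritic cells, had 9.29, 8.76, 5.68 and 5.72 in GFP 1 to 4 and 6.42, 5.77, 6.15 and 5.93 in LCN2 1 to 4, and Foxp3, of regulatory T cells, had 6.14, 5.88, 4.82 and 4.65 in GFP 1 to 4 and 4.92, 4.67, 4.56 and 4.95 in LCN2 1 to 4. In all 3 genes GFP 1 and GFP 2 were above the other 6 samples, and LCN2 4 was not set apart. Ccl22 and Foxp3 were chosen after their values were seen.

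Ighm did not follow the order of the 10 B cell members, and it was not the only further B cell gene to depart from it. Its rlog values were 13.45, 12.99, 13.33 and 10.62 in GFP 1 to 4 and 11.11, 12.79, 13.78 and 12.82 in LCN2 1 to 4, so GFP 3, low in all 10 B cell members, was close to GFP 1, and LCN2 3 was highest. Ighd, the constant region of naive B cells, had 11.86, 10.68, 6.84 and 6.97 in GFP 1 to 4 and 7.19, 7.05, 7.43 and 10.16 in LCN2 1 to 4, with GFP 1, GFP 2 and LCN2 4 highest, in the order of the B cell members. Ighm was chosen after its values were seen.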
